A study of Mus musculus with 4 samples.

Results

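The blood-brain barrier was followed through 10 genes of the vessel wall among the 32285 genes counted: the junction genes *Cldn5*, *Tjp1*, *Ocln* and *Pecam1*, the transporter genes *Mfsd2a*, *Abcb1a* and *Abcg2*, and the receptor genes *Flt1*, *Tek* and *Eng*. They were chosen by name, and each symbol matched 1 row of the count tables. Single nuclei were isolated from frozen brains of 5XFAD mice, a transgenic model of Alzheimer's disease whose transgenes are driven by the neuronal *Thy1* promoter. The mice, 7 to 10 weeks old, had been injected intravenously with engineered, transferrin-conjugated extracellular vesicles (EVs) that were low (PE-low) or high (PE-high) in phosphatidylethanolamine, a membrane phospholipid. There were 2 libraries of nuclei per group, each from pooled mice, so that all 4 libraries shared the transgenes and an EV injection, and neither uninjected nor wild-type mice were analysed here.

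Brain endothelial cells line the capillaries and are sealed to one another by tight junctions, in which claudins and occludin span the membrane and the scaffold protein ZO-1, the product of *Tjp1*, ties them to the cytoskeleton. Passage through the cell is limited by low vesicle traffic, which the lipid transporter of *Mfsd2a* restrains, and by the efflux pumps P-glycoprotein (*Abcb1a*) and BCRP (*Abcg2*), which return drugs and lipids to the blood. VEGF receptor 1 (*Flt1*), the angiopoietin receptor TIE2 (*Tek*), the TGF-β co-receptor endoglin (*Eng*) and the adhesion molecule PECAM-1 (*Pecam1*) mark the endothelium of vessels in general.

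The 2 members shown here by sequence are *Cldn5*, whose endothelial level differed most between libraries, and *Flt1*, the member counted most often and the most even of the 10. *Cldn5* (ENSMUSG00000041378) lies on chromosome 16 from 18776847 to 18778262 on the plus strand (GRCm38) and was annotated with 1 exon, and thus no intron. *Flt1* (ENSMUSG00000029648) spans 164408 bases of chromosome 5, from 147561604 to 147726011 on the minus strand, with up to 30 exons. The 250 bases before each RefSeq start (GRCm38.p6, 5′ to 3′ on the gene's strand) are chr16:18776597-18776846 for *Cldn5* and chr5:147726012-147726261 for *Flt1*, with the core GGAA of ETS factors in capitals; ETS factors such as ERG are regulators of endothelial genes.

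Cldn5: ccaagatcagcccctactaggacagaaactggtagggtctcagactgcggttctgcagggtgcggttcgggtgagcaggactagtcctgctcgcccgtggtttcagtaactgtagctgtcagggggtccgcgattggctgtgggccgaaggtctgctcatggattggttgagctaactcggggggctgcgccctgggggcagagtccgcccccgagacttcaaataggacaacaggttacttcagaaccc
Flt1: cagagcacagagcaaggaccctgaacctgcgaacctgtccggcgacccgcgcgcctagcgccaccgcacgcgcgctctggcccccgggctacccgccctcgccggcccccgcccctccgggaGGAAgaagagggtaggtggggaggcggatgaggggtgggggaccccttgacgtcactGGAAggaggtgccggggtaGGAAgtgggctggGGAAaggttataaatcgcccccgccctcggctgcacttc

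Of the 10 members, 9 had such a window (12 windows, since *Ocln* and *Abcg2* have several starts), and *Pecam1* had none. GGAA, read on both strands, was present 4 times before *Flt1*, was absent from the *Cldn5* window, and was found for 8 of the 9 members, while 93.4% of all 27025 windows held it. The longer GGAAG, which contains GGAA, was found for 5 of 9 members and in 63.6% of all windows. The interferon-stimulated response element (GAAA, any 2 bases, GAAA) and the STAT site TTCNNNGAA were found for 0 of the 9 members, against 3.04% and 7.18% of all windows. For *Tjp1* and *Abcb1a* the 30 bases after the RefSeq start were found in 0 annotated transcripts of the gene. The *Abcb1a* window ends at 8567090 on chromosome 5, well before the annotated gene, which starts at 8660077. A member with several windows was counted if any held the letters, whereas each gene gave only its first window to the 27025. These matches describe letters in a short window only.

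At a mitochondrial limit of 15% per nucleus, 37511 nuclei were kept, of which 550 fell in clusters named endothelial-like from 15 marker genes, such as *Cdh5*, *Slco1a4* and *Adgrl4*, none of them a member. Library PE-low 1 gave 204 endothelial-like nuclei (1.98% of its nuclei), PE-low 2 gave 131 (1.72%), PE-high 1 gave 109 (1.08%) and PE-high 2 gave 106 (1.11%). All 15 endothelial markers were counted in each library, with a summed level of 9700 to 11400 CPM, the usual scale on which UMIs (molecules told apart by a random barcode) are divided by the UMI total of the class in that library. Single markers were less even than their sum. Some were highest in PE-low 1, such as *Egfl7* (509, 85.5, 95.8 and 199 CPM in PE-low 1, PE-low 2, PE-high 1 and PE-high 2) and *Emcn* (483, 107, 228 and 159). Others were lowest there, such as *Cyyr1* (763, 1780, 1620 and 1750) and *Adgrl4* (1260, 2230, 1390 and 1820). The deposited tables held 29472021 to 43272337 UMIs per library. The endothelial-like nuclei held 192548, 140346, 83482 and 75271 UMIs in the same order of libraries, with a median of 617 to 1009 UMIs per nucleus. Cell barcodes shared between pairs of libraries numbered 19 to 35 among all kept nuclei and 0 among endothelial-like nuclei.

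One library stood apart from the other 3. The endothelial-like nuclei fell in 2 clusters that divided by library: PE-low 1 placed 204 of 204 nuclei in a cluster led by *Slco1a4*, *Flt1* and *Cldn5*, whereas PE-low 2 placed 131 of 131, PE-high 1 placed 107 of 109 and PE-high 2 placed 106 of 106 in a cluster led by *Cxcl10*, *Gbp5* and *Rsad2*, genes that interferons induce. *Cxcl10*, a chemokine gene, had 0 UMIs among the 192548 of PE-low 1, which allows a level of up to 15.6 CPM, and 9530, 7250 and 6180 CPM in PE-low 2, PE-high 1 and PE-high 2, at least 396-fold higher. Over 20 interferon-response genes, picked after the values had been seen, the summed endothelial level was 2960 CPM in PE-low 1 against 44900 in PE-low 2, 35800 in PE-high 1 and 38900 in PE-high 2. The low library was thus 1 of the 2 PE-low libraries, and the other PE-low library lay beside the PE-high libraries.

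The same 20 genes summed to 194 CPM in microglia-like nuclei of PE-low 1 and to 947, 433 and 455 CPM in PE-low 2, PE-high 1 and PE-high 2, and to between 26.9 and 65.8 CPM in the 3 neuron classes of all libraries. Over the 2531 genes tested in endothelial-like nuclei, the root mean square difference of log2 CPM was 1.02 to 1.09 between PE-low 1 and each other library, and 0.56 to 0.64 among the other 3. Treatment comparisons are therefore given with and without PE-low 1.

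**Figure D1:**
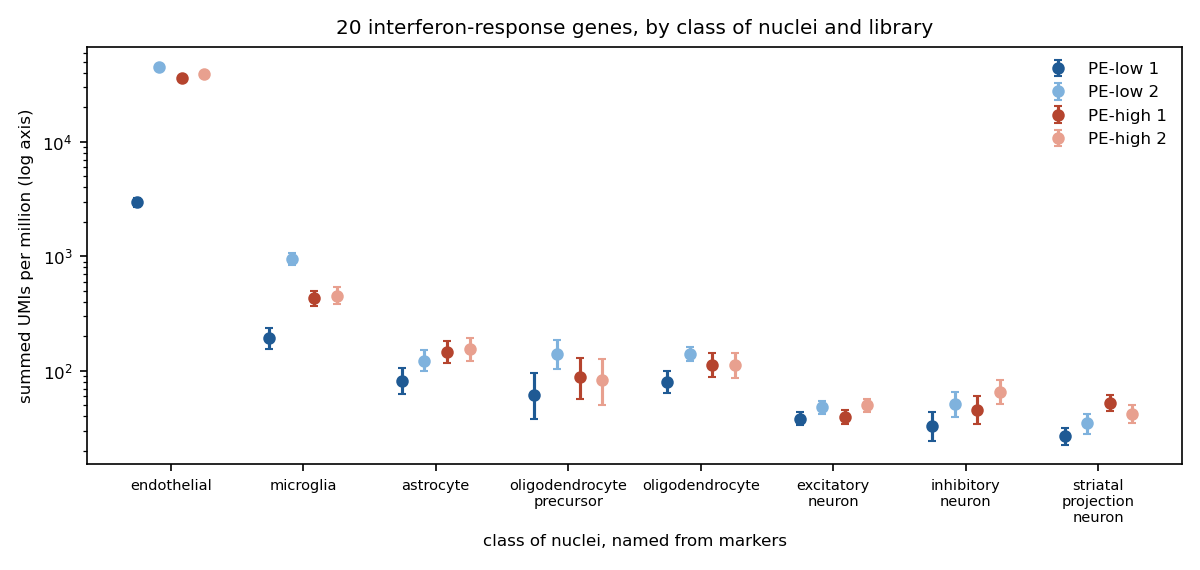
Summed level of 20 interferon-response genes (CPM, log axis) in each class of nuclei, 1 point per library, with bars for the exact 95% Poisson interval. In endothelial-like nuclei PE-low 1 sits at 2960 and the other 3 libraries between 35800 and 44900.

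Among the tight junction genes, *Cldn5*, the claudin that seals brain capillaries, was counted at 1320 CPM (exact 95% Poisson interval 1160 to 1490) in PE-low 1, 64.1 (29.3 to 122) in PE-low 2, 216 (128 to 341) in PE-high 1 and 226 (132 to 362) in PE-high 2. PE-low 1 was 5.84-fold above the next library and 20.6-fold above PE-low 2, so that the 2 PE-low libraries lay on either side of the PE-high libraries. These intervals cover counting error only, as do all others given. Over all UMIs of a library, empty droplets included and with no nuclei called, *Cldn5* was counted 793 times in PE-low 1 (19.1 CPM) and 55, 65 and 53 times in PE-low 2, PE-high 1 and PE-high 2 (1.27, 2.00 and 1.80 CPM). In whole libraries fewer endothelial cells and less RNA per cell cannot be told apart. For comparison, *Flt1* was counted 1659, 970, 522 and 505 times over whole libraries, or at 40.0, 22.4, 16.1 and 17.1 CPM.

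Within PE-low 1, *Cldn5* was at 1350 CPM (1080 to 1660) in the 61 endothelial-like nuclei with a UMI of any of 6 interferon-response genes (*Cxcl10*, *Gbp5*, *Rsad2*, *Iigp1*, *Ifit1* and *Slfn5*) and at 1310 CPM (1110 to 1520) in the 143 without one. The intervals overlap, as they did for the other 9 members. In the other 3 libraries all but 2 endothelial-like nuclei carried such a UMI, and the same split could not be made there. The 61 nuclei were not at the interferon-response level of those libraries. In PE-low 1 *Cxcl10* had 0 UMIs, and *Slfn5*, the most counted of the 6 genes, was at 234 CPM. *Slfn5* was at 2650, 1800 and 1980 CPM in PE-low 2, PE-high 1 and PE-high 2. The split therefore could not show whether *Cldn5* goes with that level, which was not tested.

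*Tjp1*, which encodes ZO-1, was at 1110, 962, 671 and 1130 CPM in PE-low 1, PE-low 2, PE-high 1 and PE-high 2. PE-high 1 was the lowest library and PE-high 2 the highest, so the 2 PE-high libraries spanned the range of the PE-low libraries. *Ocln*, which encodes occludin, was at 312, 157, 108 and 213 CPM in the same order, on 60, 22, 9 and 16 UMIs. *Pecam1*, the adhesion gene at endothelial borders, was at 358, 178, 383 and 332 CPM. Here PE-low 2 was the lowest library and the other 3 lay close together.

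Of the transporters, *Abcb1a*, the P-glycoprotein gene, was at 795 CPM (674 to 931) in PE-low 1, 477 (370 to 606) in PE-low 2, 419 (292 to 583) in PE-high 1 and 651 (482 to 861) in PE-high 2. *Abcg2*, the BCRP gene, was at 717, 549, 503 and 412 CPM in the same order. Both PE-low libraries lay above both PE-high libraries for *Abcg2*, with overlapping intervals between PE-low 2 (433 to 686) and PE-high 1 (363 to 680). *Mfsd2a*, the lipid transporter gene, was counted on 28, 8, 6 and 1 UMIs, or 145, 57.0, 71.9 and 13.3 CPM, and was highest in PE-low 1.

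Among the receptors, *Flt1* was at 3560 CPM (3300 to 3830) in PE-low 1, 3180 (2900 to 3490) in PE-low 2, 2620 (2290 to 2990) in PE-high 1 and 2710 (2350 to 3110) in PE-high 2, a range of 1.36-fold over the 4 libraries. *Tek*, the TIE2 gene, was at 374 CPM in PE-low 1 and at 192, 180 and 186 CPM in the others. *Eng* was at 426, 257, 299 and 173 CPM. The order of *Tek* thus set PE-low 1 apart from 3 nearly equal libraries, and *Eng* varied within both groups.

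**Figure D2:**
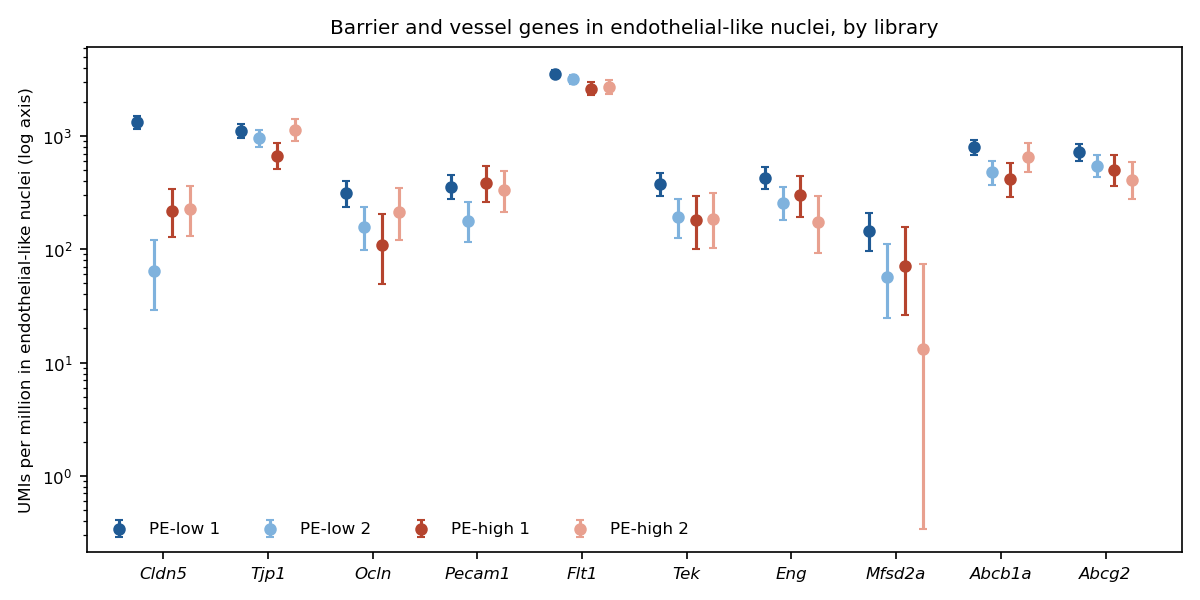
Level of each member in endothelial-like nuclei (CPM, log axis), 1 point per library with the exact 95% Poisson interval. *Cldn5* spreads from 64.1 to 1320 with PE-low 1 at the top, while *Flt1* spreads from 2620 to 3560.

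Over the 10 members, 8 were highest in PE-low 1, the exceptions being *Tjp1* and *Pecam1*. The share of all tested genes that were highest in PE-low 1 was not counted, so the 8 are not read as a trait of the members. The groups did not overlap for 3 members, *Flt1*, *Tek* and *Abcg2*, all higher with PE-low EVs. Of the 2531 genes tested in these nuclei, 14.6% had groups that did not overlap in that direction and 27.3% in either direction. The 3 of 10 members were near the share in either direction and above the share in that direction. With so few members this is not read as a result about them. A UMI of at least 3 different members was found in 83.3% of endothelial-like nuclei of PE-low 1, 61.1% of PE-low 2, 44.0% of PE-high 1 and 39.6% of PE-high 2. The nuclei had median depths of 846.5, 1009, 632 and 617 UMIs, whose part in this order was not tested. In the other tested classes at most 0.871% of nuclei of a library held 3 members.

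The share of endothelial-like nuclei with a *Flt1* UMI was 91.2%, 84.7%, 79.8% and 72.6% in PE-low 1, PE-low 2, PE-high 1 and PE-high 2, and 0.231% to 0.775% of excitatory neuron-like nuclei, which should lack the gene and were deeper, with medians of 1878 to 3387.5 UMIs. The share with a *Cldn5* UMI was 59.3%, 6.87%, 11.9% and 14.2% in the same order, and 0% to 0.602% of excitatory neuron-like nuclei. After each nucleus was thinned to 500 UMIs, which left out 0, 0, 19 and 21 shallower nuclei, *Cldn5* was found in 44.1%, 2.29%, 7.78% and 12.9% of endothelial-like nuclei, and *Flt1* in 77.0%, 68.7%, 70.0% and 60%. The order of libraries for *Cldn5* was that of the CPM.

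Markers of other cell types were summed over whole lists in the endothelial-like nuclei. The 10 mural markers, of pericytes and smooth muscle, reached 2310, 1940, 1920 and 1540 CPM in PE-low 1, PE-low 2, PE-high 1 and PE-high 2, mostly through *Rgs5* (1280, 1540, 1310 and 1050 CPM), with *Tagln* at 0 in 3 libraries. The 10 microglial markers reached 221 to 407 CPM, the 7 oligodendrocyte markers 810 to 1990 CPM and the 8 astrocyte markers 1810 to 2170 CPM. The 4 red-cell markers were at 2050 CPM in PE-low 1 and PE-high 1 and at 912 and 917 CPM in PE-low 2 and PE-high 2. The share of free RNA, estimated from markers of other classes, was 43.7% to 47.8% in all 4 libraries. With that share subtracted, *Cldn5* was at 2290, 105, 372 and 363 CPM in PE-low 1, PE-low 2, PE-high 1 and PE-high 2, again with PE-low 1 highest and PE-low 2 lowest. The part of the other cell types in the levels was not tested.

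The question of the design was whether PE-high EVs changed these genes relative to PE-low EVs. On endothelial-like UMI sums of the 4 libraries, edgeR's quasi-likelihood test called 0 of 2531 genes at an adjusted p under 0.1, or 0%, with 21 genes at an unadjusted p under 0.05, and DESeq2 called 0, with 0 at that unadjusted p. Of the 10 members, 9 passed the filter on low counts and 0 were called. Of these 9, 8 had a negative log2 fold change (lower with PE-high EVs), and their median was −0.45 beside 0.04 over all genes tested.

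*Cldn5* averaged 692 ± 887 CPM (SD, n = 2) over PE-low libraries and 221 ± 7.24 CPM (SD, n = 2) over PE-high libraries. Its fitted log2 fold change was −1.61, its standard error 1.23 and its adjusted p 0.9997 in edgeR, and the SD over PE-low libraries exceeded their mean. Standard errors beside edgeR values are the size of the log2 fold change over the square root of the test's F statistic, since the test gives none. DESeq2's own were 1.16 for *Cldn5*, 0.70 for *Tjp1* and 0.64 for *Flt1*, where edgeR's F gave 0.39 for *Tjp1* and 0.30 for *Flt1*. Without PE-low 1 the log2 fold change of *Cldn5* was 1.75 (standard error 0.38, adjusted p = 0.984 in edgeR), and without PE-low 2 it was −2.60 (standard error 0.33, adjusted p = 4.65e-07 in edgeR). The direction of *Cldn5* was therefore set by which PE-low library was kept.

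Without PE-low 2, when the contrast is PE-low 1 against the 2 PE-high libraries and the lone library is assumed to vary like the others, 14.1% of 2327 genes were called and 4.21% were called lower with PE-high EVs. Of the 10 members, 3 were called lower: *Cldn5*, *Tek* (−1.05, standard error 0.34, adjusted p = 0.0413 in edgeR) and *Ocln* (−1.0, standard error 0.36, adjusted p = 0.0703 in edgeR). Without PE-low 1, 0% of 2223 genes and 0 of the 9 tested members were called, 85 genes had an unadjusted p under 0.05, and the median log2 fold change of the members was −0.08.

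None of the other members passed the test either. For *Tek* the fitted log2 fold change was −0.61 (standard error 0.44), for *Ocln* −0.54 (0.52), for *Eng* −0.51 (0.46) and for *Abcg2* −0.45 (0.35). *Flt1* had −0.32 (0.30), *Abcb1a* −0.23 (0.43) and *Tjp1* −0.19 (0.39), and *Pecam1* was the 1 member with a positive value, 0.43 (0.44). Each of these had an adjusted p of 0.9997 in edgeR. *Mfsd2a*, with 43 UMIs in all, did not pass the filter, and in the fit with no filter its value was −1.25 on the log2 scale (standard error 0.65, adjusted p = 0.959 in edgeR). With 2 libraries per group, differences of the size seen for *Flt1* or *Tjp1* were within the standard error or close to it, which does not show that the groups are alike.

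**Figure D3:**
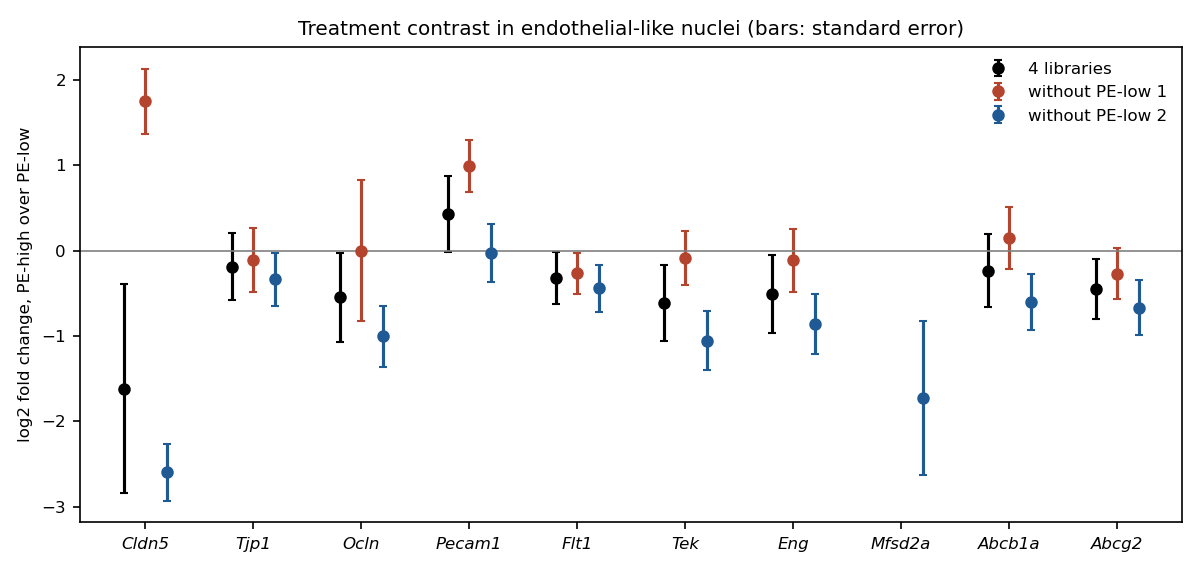
Log2 fold change of each member in endothelial-like nuclei, PE-high over PE-low, for all 4 libraries and without either PE-low library. Bars are the standard error derived from edgeR's F statistic. *Cldn5* moves from −1.61 to 1.75 without PE-low 1 and to −2.60 without PE-low 2, and *Mfsd2a* has no value where it did not pass the filter.

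Other genes of the same functions were read from lists grouped by function. Of 11 further junction genes, 8 were tested and 0 were called in either direction, with a median log2 fold change of −0.24, and −0.13 without PE-low 1. Its most counted members were *Ctnnb1*, the β-catenin gene (395, 392, 311 and 213 CPM in PE-low 1, PE-low 2, PE-high 1 and PE-high 2), and *Esam*, an endothelial adhesion gene (270, 249, 240 and 159 CPM). Of 12 transporter genes, 11 were tested and 0 called, with a median of −0.39, and 0.04 without PE-low 1. The organic anion transporter gene *Slco1a4*, which was also a naming marker, was at 2910, 784, 719 and 1140 CPM, again with PE-low 1 apart, while the glucose transporter gene *Slc2a1* was at 1200, 1170, 934 and 890 CPM.

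Of 12 receptor genes, 10 were tested and 0 called (median −0.11, and 0.04 without PE-low 1), with the naming markers *Adgrl4* and *Ptprb* counted most. Of 9 genes of vesicles and transcytosis, 5 were tested and 0 called (median −0.51, and −0.19 without PE-low 1), among them *Bsg*, the basigin gene, at 5350, 3660, 3230 and 3310 CPM, and *Slc3a2*, an amino acid transporter subunit, at 296, 299, 419 and 518 CPM. Of 15 genes of Wnt signalling and barrier induction, 6 were tested and 0 called. Their median of −0.73 moved to −0.09 without PE-low 1, and their most counted member *Lef1*, a transcription factor of Wnt signalling, was at 743, 413, 287 and 399 CPM.

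Genes of vessel segments and of activated endothelium were mostly too sparse to test. Of 7 arterial genes 1 was tested, of 6 venous genes 2 and of 8 activation genes 2, and 0 were called. Their median log2 fold changes were 1.00, 1.02 and 1.40, and 0.90, 0.02 and 0.45 without PE-low 1. With all libraries these values rest on *Mgp* alone, on *Vcam1* and *Lcn2*, and on *Icam1* and again *Vcam1*, in the same order of lists. *Vcam1* and *Icam1*, adhesion genes that inflamed endothelium shows to leukocytes, were lowest in PE-low 1, where *Cldn5* was highest. *Vcam1* was at 26.0 CPM in PE-low 1 and at 770, 1410 and 1020 CPM in PE-low 2, PE-high 1 and PE-high 2, and *Icam1* was at 36.4 CPM against 741, 1010 and 744 CPM. PE-low 1 thus lay apart from the other 3 libraries for both genes.

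The comparison with other classes covered the 7 with at least 20 nuclei in every library. In endothelial-like nuclei of every library, 9 members were higher than in any of these 7 classes in any library. Mural-, fibroblast-, ependymal- and choroid plexus-like nuclei were fewer and were left out. By library, 18.2% to 35.5% of mural-like nuclei held a *Flt1* UMI. An *Ocln* UMI was found in 0% to 22.2% of ependymal-like nuclei, against 7.34% to 24.0% of endothelial-like nuclei. The median level over libraries was 2950 CPM for *Flt1* against at most 5.37 CPM in any of the 7 classes. For *Abcb1a* it was 564 against at most 3.25 CPM, and for *Cldn5* 221 against at most 2.02 CPM. *Cldn5* had 0 UMIs among 1202492 in oligodendrocyte precursor-like nuclei, which allows up to 2.49 CPM. These classes were compared without a test, because the cells were clustered on many of the genes that follow the members.

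*Tjp1* was the member shared by all classes: after endothelial-like nuclei (median 1040 CPM) came astrocyte-like (453, range 441 to 468), excitatory neuron-like (375, range 370 to 395) and striatal projection neuron-like nuclei (347, range 305 to 348). These 4 classes did not overlap one another, and from striatal projection neuron-like nuclei down neighbouring classes overlapped, ending with microglia-like nuclei at 273 CPM. All of these levels were above free RNA, at 67.9 to 77.0 CPM in near-empty droplets.

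*Mfsd2a* was the member that did not set endothelial-like nuclei apart: their median of 64.4 CPM (range 13.3 to 145) overlapped those of astrocyte-like (38.9, range 24.1 to 43.4) and oligodendrocyte precursor-like nuclei (35.7, range 29 to 52.7), and these in turn did not overlap oligodendrocyte-like nuclei (9.83, range 7.43 to 14.3). Free RNA held *Mfsd2a* at 11 to 15.2 CPM. Of all *Mfsd2a* UMIs in kept nuclei, 24.8%, 8.33%, 7.23% and 1.79% lay in endothelial-like nuclei of PE-low 1, PE-low 2, PE-high 1 and PE-high 2, whereas for *Flt1* 59.7% to 64.6% did.

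*Abcg2* was also counted in microglia-like (median 56.4 CPM, range 32.2 to 66.2) and oligodendrocyte precursor-like nuclei (45.0, range 27.8 to 54.1), whose ranges overlapped, above 10.2 to 14.2 CPM in free RNA. *Tek* was at 24.7 CPM in excitatory neuron-like nuclei (22.1 to 28.9) and 12.5 and 12.4 CPM in striatal projection neuron-like and inhibitory neuron-like nuclei, which overlapped each other, against 2.11 to 3.84 CPM in free RNA. *Eng* and *Pecam1* came next in microglia-like nuclei, at 19.9 CPM (8.69 to 27.8) and 15.6 CPM (7.42 to 23.5). Mural-like nuclei numbered only 31, 14, 15 and 11 and were not tested. They held 18, 3, 3 and 2 UMIs of *Flt1* and 19, 9, 4 and 3 of *Tjp1*.

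**Figure D4:**
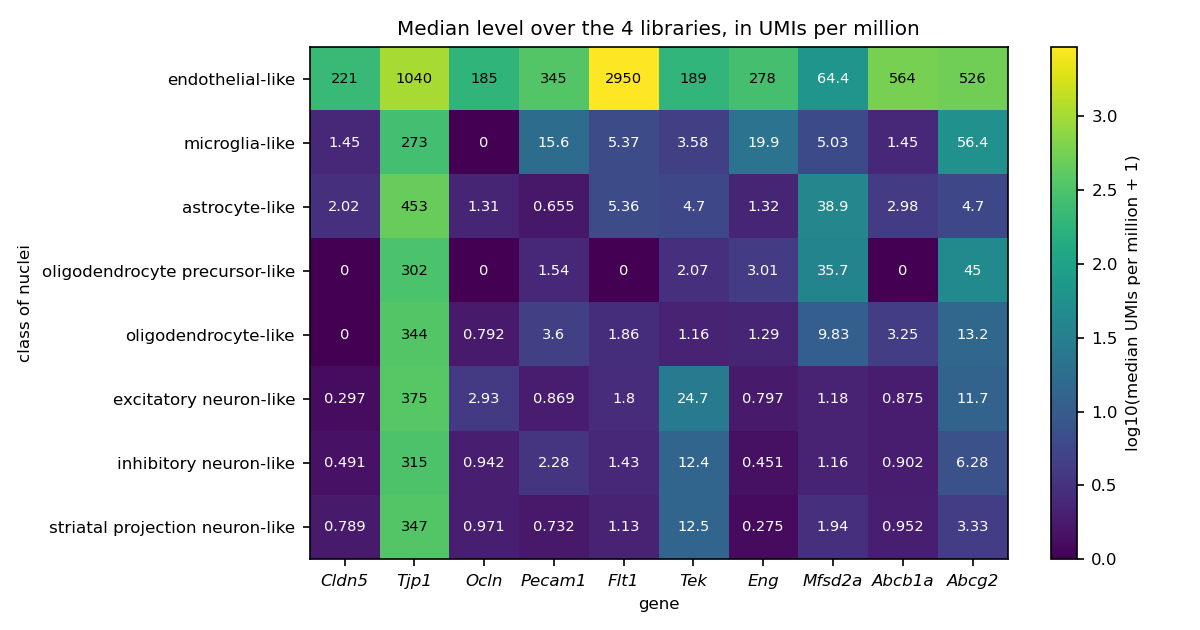
Median level over the 4 libraries (CPM, written in each cell, colour on a log10 scale) of each member in 8 classes of nuclei. The endothelial-like row is the highest for each gene, with *Tjp1* at 273 or more in all classes and *Mfsd2a* at 38.9 in astrocyte-like nuclei.

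In the other classes few members were counted often enough to test. Over 7 classes, 19 tests of 6 members were made, 0 were called, the smallest unadjusted p was 0.0553, and the log2 fold changes lay between −0.91 (*Flt1* in excitatory neuron-like nuclei) and 0.42 (*Abcg2* in oligodendrocyte-like nuclei). Over all genes tested, edgeR called 0% in 6 of these classes (with 299 to 701 genes at an unadjusted p under 0.05) and 0.0168%, or 1 gene, in oligodendrocyte precursor-like nuclei. *Tjp1*, tested in all 7, had its lowest value in oligodendrocyte-like nuclei (−0.20, standard error 0.19), followed by striatal projection neuron-like nuclei (−0.12, standard error 0.14), and its highest in excitatory neuron-like nuclei (0.00, standard error 0.11). Without PE-low 1, the smallest unadjusted p of 20 such tests of 6 members was 0.0982 (smallest adjusted p = 0.531 in edgeR).

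Whether the treatment effect differed between endothelial-like nuclei and each of the 7 other classes was tested as a class by treatment term with the library as a covariate. Of all genes, 0% were called in each of the 7 comparisons, and 182 to 396 genes had an unadjusted p under 0.05. All 10 members entered each of these 7 fits, but most were so rare in the other class that the difference says little: *Cldn5* against oligodendrocyte precursor-like nuclei rests on 0 UMIs in that class. In 17 pairs of a member and a class the member also passed the filter in both classes on its own, and of these 0 were called. For the 17 pairs, on 5 members, the difference of the log2 fold changes ran from −0.94 (*Tek* against inhibitory neuron-like nuclei) to 0.49 (*Flt1* against excitatory neuron-like nuclei), and the lowest unadjusted p was 0.116. Among the other pairs, 0 were called and the lowest unadjusted p was 0.000679, for *Flt1* against oligodendrocyte-like nuclei (difference 4.73, standard error 1.29, adjusted p = 1 in edgeR). Without PE-low 1, 0 members were called in any of the 7 comparisons and the 17 pairs ran from −1.12 to 0.27, while of all genes 0% were called against excitatory neuron-like, 0.00759% against striatal projection neuron-like, 0.0157% against oligodendrocyte precursor-like, 0.0189% against inhibitory neuron-like, 0.0413% against microglia-like, 0.142% against astrocyte-like and 0.311% against oligodendrocyte-like nuclei.

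The mitochondrial limit decided how much endothelium was seen. At 15%, 10%, 5% and 3%, the same clusters kept 550, 371, 48 and 1 endothelial-like nuclei, or 100%, 67.5%, 8.73% and 0.182%, while all kept nuclei fell only to 89.8%, 56.5% and 28.5%. The study's methods name the limit of 3%. The paper nevertheless describes a robust cluster of endothelial cells, so the 1 nucleus left here does not describe the endothelium in its own set of nuclei. Endothelial-like nuclei had median mitochondrial shares of 8.64%, 7.66%, 9.90% and 7.43% in PE-low 1, PE-low 2, PE-high 1 and PE-high 2, against 2.57% to 4.38% in excitatory neuron-like nuclei.

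At 10% *Cldn5* was at 1420, 67.6, 296 and 273 CPM in PE-low 1, PE-low 2, PE-high 1 and PE-high 2, again with PE-low 1 highest and PE-low 2 lowest. At 5%, where the libraries held 9, 20, 5 and 14 endothelial-like nuclei, PE-low 1 still stood at 1680 CPM (997 to 2660) on 18 UMIs, PE-low 2 at 39.9 (1.01 to 222) on 1 UMI and PE-high 2 at 103 (2.60 to 571) on 1 UMI. PE-high 1 had 0 *Cldn5* UMIs among 3242, which allows up to 925 CPM. *Flt1* was at 4390, 3070, 4010 and 2870 CPM at 5%, with intervals that overlap among all 4 libraries. The 1 nucleus left at 3%, from PE-low 2, held 3 *Flt1* UMIs and none of the other 9 members.

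**Figure D5:**
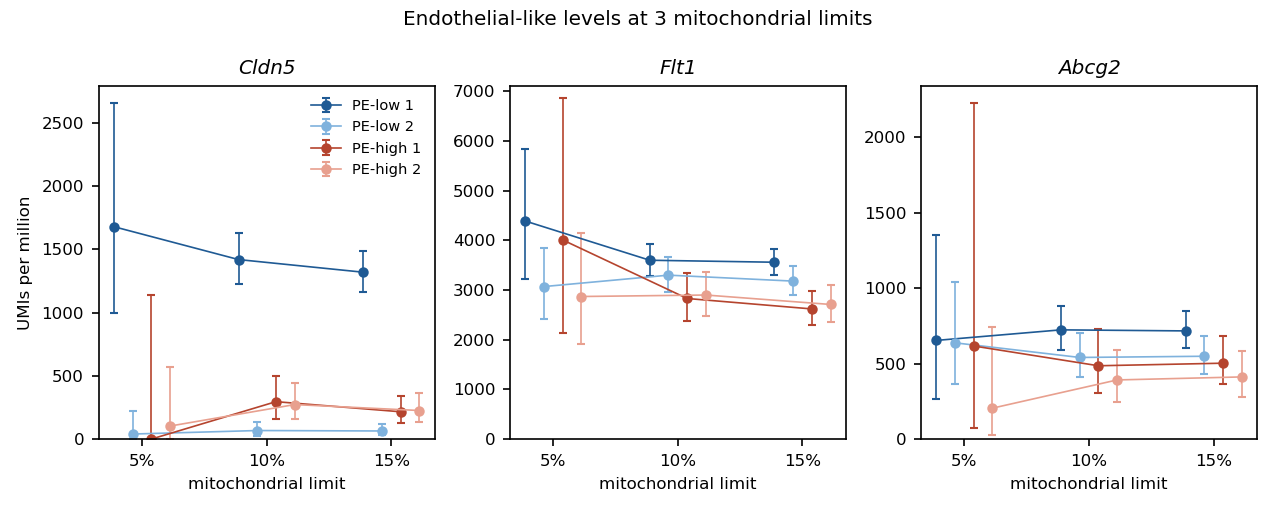
Levels of *Cldn5*, *Flt1* and *Abcg2* in endothelial-like nuclei (CPM, linear axes from 0) at mitochondrial limits of 5%, 10% and 15%, 1 line per library with exact 95% Poisson intervals. *Cldn5* of PE-low 1 is above the other libraries at each limit, from 1320 to 1680.

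The genes whose level followed each member most closely over the 32 sums of 8 classes and 4 libraries were named by Pearson's r of log2(CPM + 1). Candidates were 1985 genes with at least 50 UMIs in endothelial-like nuclei, neither markers nor members. The members were also highest in those nuclei, so a high r was in part set by this choice. The r is a description without a test, since sums of 1 library share its depth and preparation. *Cldn5* was followed by *Slc22a8*, an organic anion transporter gene (r = 0.923), at 229, 114, 144 and 106 CPM in endothelial-like nuclei. *Abcb1a* was followed by *Mecom* (r = 0.964), *Flt1* by *Rassf9* (0.956), *Tjp1* by the spectrin gene *Sptbn1* (0.941), *Eng* by the histocompatibility gene *H2-D1* (0.939) and *Pecam1* also by *H2-D1* (0.938). In endothelial-like nuclei *H2-D1* was at 177, 456, 455 and 292 CPM, lowest in PE-low 1, where *Eng* was highest. A high r over classes thus did not mean the same order of libraries. *Ocln* was followed by *Igf1r* (0.938), *Abcg2* by *Rsu1* (0.909), *Mfsd2a* by *Rgcc* (0.861) and *Tek* by *Dab2ip* (0.856).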

How the data were processed

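The authors deposited unfiltered count tables, 1 per library, that is whole-number UMI counts per gene and barcode from a 10x Genomics 3′ kit. The submitters' processing notes name Cell Ranger 7.1.0 and mm10. From these counts, nuclei were called here (a knee plus a test against near-empty droplets), filtered (200 to 2500 genes, mitochondrial share up to 15%) and clustered (Leiden, resolution 1, 30 components, 2000 variable genes) without the 10 members and the mitochondrial genes. The limit of 15% was used because it held most endothelial-like nuclei, while the 3% limit of the study's methods left 1 of those called here. Clusters were named from markers that hold no member. The naming thresholds were set after clusters had been seen, and the members and lists were chosen with earlier results of these data known.

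UMIs were summed per class and library and tested with edgeR 4.0.16 (quasi-likelihood, TMM, filterByExpr, Benjamini-Hochberg, threshold 0.1), in classes with at least 20 nuclei in every library, with DESeq2 1.42.0 as an alternative. The script was tested on counts simulated for the endothelial-like contrast with the fitted dispersion. It called 7% of 2-fold changes and 47% of 4-fold changes, and 11.5% of its calls were false. Many changes of these sizes would thus be missed. Libraries were the replicates, each a pool of mice, so p-values measure the spread between pools. CPM came from these sums, with exact 95% Poisson intervals. A gene or list was named by a fixed rule: the 10 members, and per list the genes past the threshold, otherwise the 2 with most UMIs. Scrublet called 2, 248, 0 and 3 doublets in PE-low 1, PE-low 2, PE-high 1 and PE-high 2, so it worked in at most 1 library, and doublets were kept. Promoter sequences are RefSeq's (GRCm38.p6) and gene positions are from GENCODE M21 (GRCm38), the build of mm10. Levels of genes of different lengths were not compared with each other. The labels give same-numbered libraries nothing in common beyond the number. Whether they shared a step of preparation is not given and was not tested.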

Additional observations from a re-analysis of the deposited data

How the results depend on the processing

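The count of genes called in endothelial-like nuclei was 0 under each alternative except leaving out a library, where it ranged from 0 to 327, and the count of members called ranged from 0 to 3. Both maxima came without PE-low 2. The alternatives were DESeq2, RLE size factors, no filter, the replicate block, limits of 5% and 10%, clusters rebuilt at 10%, a gate on markers per nucleus, removal of called doublets, subtraction of free RNA and a threshold of 0.05 and, as later additions made with the data in view, the gate with no upper limit on genes and at 5% and 10%, and all clusters led by endothelial markers. The class by treatment term was also refitted without PE-low 1, a later addition, with 0 members called. Clusters rebuilt at 5% and those built with no upper limit on genes left 0 endothelial-like nuclei in PE-low 1, and the 3% limit left 1 nucleus in all, so these gave no test of 4 libraries.

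Leaving out 1 library, log2 fold changes ranged from −2.60 to 1.75 for *Cldn5*, −0.59 to 0.15 for *Tjp1*, −1.06 to 3.85e-05 for *Ocln*, −0.023 to 1.00 for *Pecam1* and −0.60 to 0.15 for *Abcb1a*. The sign also turned for *Tjp1* under the gate at 5% (0.14) and for *Pecam1* in clusters rebuilt at 10% (−0.047). In these cases the cause was not tested.

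The replicate block left 0 members called in each class. Deviations from the group mean correlated at 0.05 between same-numbered endothelial sums. With 2 libraries per group both pairs must give the same value, so this is 1 correlation only. *Cldn5* was at −0.60 under the block. Over all genes of the other classes the block called 26 in astrocyte-like, 9 in excitatory neuron-like, 12 in microglia-like, 2 in oligodendrocyte-like and 17 in oligodendrocyte precursor-like nuclei. Leaving out 1 library, genes called ranged from 2 to 150 in astrocyte-like, 0 to 305 in excitatory neuron-like, 2 to 71 in inhibitory neuron-like, 0 to 198 in microglia-like, 0 to 201 in oligodendrocyte-like, 0 to 15 in oligodendrocyte precursor-like and 1 to 817 in striatal projection neuron-like nuclei, with 0 members among them. In oligodendrocyte precursor-like nuclei 0 genes were called at 5% and at 10%.

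At 5%, where 5 to 20 nuclei per library remained, mean endothelial levels were 294 CPM for *Ocln*, 3590 for *Flt1*, 396 for *Eng* and 134 for *Mfsd2a*. Thinned to 500 UMIs, the mean share of endothelial-like nuclei with a UMI was 36.6% for *Tjp1*, 6.89% for *Ocln*, 16.6% for *Pecam1*, 68.9% for *Flt1*, 13.3% for *Eng*, 22.7% for *Abcb1a* and 20.7% for *Abcg2*, lower than unthinned because fewer UMIs were read.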

Other observations

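The receptor for transferrin, the ligand on the injected EVs, is the product of *Tfrc*, a gene of brain capillaries. It did not pass the filter on low counts and was looked at outside the naming rule, after its values had been seen. *Tfrc* had 100 UMIs (519 CPM) in endothelial-like nuclei of PE-low 1 and 4, 4 and 6 UMIs (28.5, 47.9 and 79.7 CPM) in PE-low 2, PE-high 1 and PE-high 2. PE-low 1 was the highest library and PE-low 2 the lowest, as for *Cldn5*.

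Several genes from the list of Wnt signalling and barrier induction were also highest in PE-low 1 without passing the test. *Apcdd1* was at 415, 164, 95.8 and 93.0 CPM in PE-low 1, PE-low 2, PE-high 1 and PE-high 2, *Fzd6* at 306, 49.9, 95.8 and 133 CPM and *Sox17* at 234, 57.0, 47.9 and 133 CPM. These 3 were also chosen after their values had been seen. On the same list, *Lrp5* (10.4, 14.3, 12 and 26.6 CPM) and *Foxf2* (51.9, 49.9, 83.9 and 26.6 CPM) were not highest in PE-low 1. The share of all genes highest in PE-low 1 was not counted. *Edn1*, the gene of the vasoconstrictor endothelin, had 24, 1, 0 and 3 UMIs.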
